A study of Mus musculus with 9 samples.

Results

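Newly made RNA was measured at 9 mouse genes that encode the core machinery of promoter-proximal pause release: Cdk9, Ccnt1, Ccnt2, Hexim1, Nelfa, Nelfb, Nelfcd, Nelfe and Supt5. The genes were chosen by symbol from 37022 genes with a row in the deposited tables, and all 9 were found, with 55 annotated transcripts among them. Each gene is represented by its transcript with the largest mean gene-body signal. The study set mouse CD8+ T cells after acute stimulation beside chronically stimulated cells with and without inhibition of MEK, the kinase that activates ERK, to follow nascent transcription in exhaustion. There were 3 libraries in each of 3 groups, Acute, Chronic and ChronicMEKi. All cells received 0.2 mM 5-ethynyl uridine for 30 minutes in culture plates, and labelled RNA was captured on streptavidin beads and read as paired reads of 100 bases. Mouse strain, age, the length of stimulation, the inhibitor's name and dose, and whether libraries came from separate animals are not given in the sources used here, so p-values measure only the spread between these libraries, which may be technical.

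RNA polymerase II often stops shortly after initiation, held there by the negative elongation factor NELF together with DSIF, whose large subunit is encoded by Supt5. The kinase P-TEFb, made of CDK9 and a cyclin T, phosphorylates NELF, DSIF and the polymerase tail and so lets the polymerase move into the gene body. Much of the cell's P-TEFb is kept inactive in a ribonucleoprotein of the small RNA 7SK, where HEXIM proteins inhibit the kinase and LARP7 and MEPCE stabilise the RNA. In T cells, P-TEFb activity is known to rise on activation.

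The deposited tables give, for each transcript, a signal over the gene body and a signal over the pause region near the start. Summed over 1 transcript per gene, the gene-body signal was 48601757 to 52216192 per library. Rows that resemble ribosomal RNA took 19.1% to 22.3% of it in Acute, 34.2% to 40.6% in Chronic and 29.0% to 36.1% in ChronicMEKi libraries. That share moved with the groups, and so the choice of scaling shifts every gene. Levels below were scaled with a trimmed mean over genes, under which the median gene differed by -0.02 (log2) between Chronic and Acute. The same median was -0.50 when libraries were scaled to their totals and -0.48 on the deposited scale. The 7 CD8 T cell markers examined were all detected, and their summed signal was 23184 to 26718 in Acute, 15984 to 17335 in Chronic and 19682 to 21814 in ChronicMEKi libraries. Cd8a, which encodes a chain of the CD8 coreceptor, had mean levels of 4061, 969 and 2881 in the same order. Lck (10393, 7133 and 7979), Cd3e (3732, 2627 and 3434) and Cd8b1 (1872, 1229 and 2041) were also lowest in Chronic cells. Cd3d averaged 1266, 1244 and 1397, Cd3g 1500.2, 1592 and 1530.3 and Cd5 1681, 1937 and 1307. Among the markers of other cells, Lyz2, Cd14 and Ncr1 had group means of at most 2.83, 3.23 and 3.91, whereas Cd4 averaged 442, 234 and 116 and Zbtb7b, the other CD4 T cell marker, 789, 1002 and 1769. The 3 NK cell markers summed to 1263 to 1434 in Acute, 971 to 1835 in Chronic and 1568 to 1693 in ChronicMEKi libraries, mostly from Eomes, and Klrb1c averaged 9.87, 24.1 and 40.6. The 5 B cell markers summed to 534 to 565 in Acute, 189 to 219 in Chronic and 160.4 to 435 in ChronicMEKi libraries, mostly from Cd79a and Pax5. The 3 dendritic cell markers summed to 206 to 269.7, 312 to 337 and 155 to 216, and the 5 myeloid markers to 161 to 227, 112 to 171 and 90.5 to 218. The part of these shifts in the results below was not tested. In bulk samples, fewer cells of a type and less RNA per cell cannot be told apart.

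In the gene body, the inhibitor gene Hexim1 was higher in Chronic than in Acute cells and in ChronicMEKi cells lay within the Acute range, while the NELF subunit genes Nelfe and Nelfcd were higher in both chronic groups than in Acute cells. A gene was called when the limma test, adjusted over all 15942 genes with enough gene-body signal, gave p under 0.05. All 9 genes had enough signal. Between Chronic and Acute cells 6 of the 9 were called, 4 higher (Hexim1, Nelfe, Nelfcd and Cdk9) and 2 lower (Ccnt2 and Nelfa). Across all genes 33.9% were called in that comparison, 18% higher and 15.9% lower (2875 and 2528 genes, but 1096 and 6846 with library totals). Between ChronicMEKi and Chronic cells 2 of 9 were called, Hexim1 lower and Nelfa higher, against 17.6% of all genes (9.93% higher and 7.65% lower). Between ChronicMEKi and Acute cells 3 of 9 were called, Nelfe and Nelfcd higher and Ccnt2 lower, against 25.8% of all genes (14.4% higher and 11.5% lower, or 2291 and 1827 genes, but 955 and 4965 with library totals). The median log2 fold changes of the 9 genes were 0.03, 0.06 and 0.01 in these comparisons, beside -0.02, 0.04 and 0.00 for all genes tested. The comparisons share libraries and are not independent of each other.

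**Figure D1:**
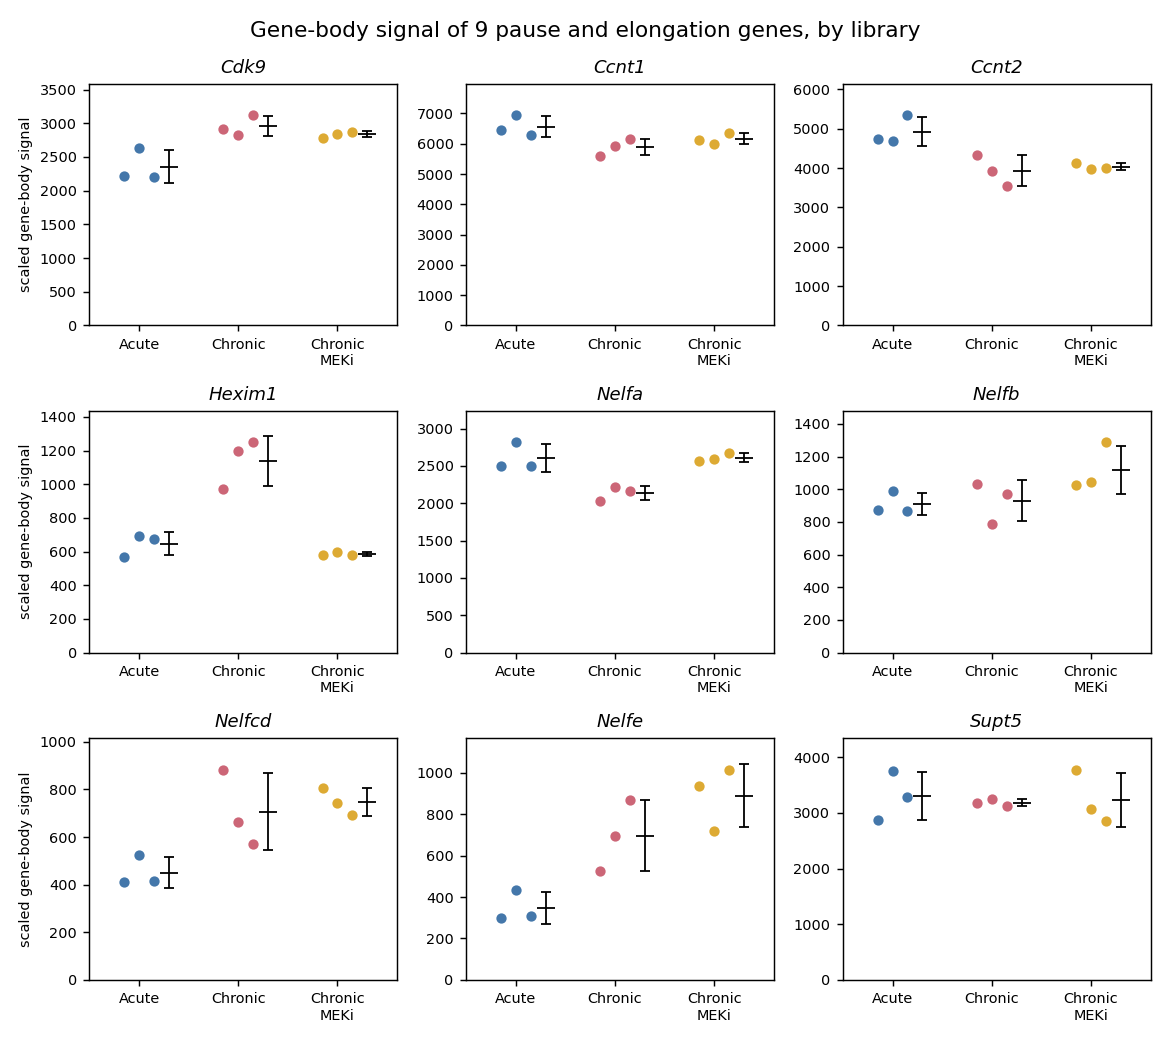
Scaled gene-body signal (linear axis from 0) of the 9 genes, with 1 point per library and, to the right of each group, the mean and SD of its 3 libraries. Hexim1 stands highest in Chronic cells (972 to 1249), whereas Nelfe and Nelfcd stand above Acute in both chronic groups and Supt5 overlaps throughout.

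Hexim1 encodes the inhibitor that holds P-TEFb inactive in the 7SK complex. It lies at chr11:103116231-103119725 on the plus strand (GRCm38), has 1 annotated transcript and overlaps no other gene. Its gene-body signal was 568, 695 and 677 in the 3 Acute libraries. The Chronic libraries read 972, 1196 and 1249, and the ChronicMEKi libraries read 578, 600.0 and 581. Every Chronic library lay above every Acute and every ChronicMEKi library, and the last pair of groups overlapped. The log2 fold change of Chronic over Acute was 0.81 (SE 0.16, 95% interval 0.48 to 1.14, adjusted p = 0.00049). ChronicMEKi cells lay below Chronic cells by a log2 fold change of -0.94 (SE 0.16, 95% interval -1.27 to -0.62, adjusted p = 0.00023). Between ChronicMEKi and Acute the difference was -0.13 with a 95% interval of -0.46 to 0.19, which includes 0, but it was -0.52 (adjusted p = 0.021) with library totals and -0.48 (adjusted p = 0.036) on the deposited scale. The Chronic libraries enter both of the called differences. The difference between ChronicMEKi and Chronic was called under each of the 21 other settings tried, with values from -1.05 to -0.81. The difference between Chronic and Acute fell to 0.32 (adjusted p = 0.13) with library totals and to 0.34 (adjusted p = 0.11) on the deposited scale.

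Upstream sequences of 2 genes are shown to set the promoter of the gene that moved most with MEK inhibition beside that of the gene with the flattest profile. The Hexim1 stretch covers chr11:103116075-103116230 and the Supt5 stretch chr7:28338747-28338969 (minus strand), both from RefSeq on GRCm38.p6 and both ending just before the most upstream annotated start. Capitals mark matches, on either strand, to 5 motifs that were picked after the sequences had been read. The motifs were TATATAA of the TATA box type, then CGCATGCG of the NRF1 type, then CCGGAAGT of the ETS type, then GGGCGG of the GC box type and last CACGTG of the E-box type.
Hexim1: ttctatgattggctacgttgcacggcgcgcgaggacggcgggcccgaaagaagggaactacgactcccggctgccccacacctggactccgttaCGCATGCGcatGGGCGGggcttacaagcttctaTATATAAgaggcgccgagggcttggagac
Supt5: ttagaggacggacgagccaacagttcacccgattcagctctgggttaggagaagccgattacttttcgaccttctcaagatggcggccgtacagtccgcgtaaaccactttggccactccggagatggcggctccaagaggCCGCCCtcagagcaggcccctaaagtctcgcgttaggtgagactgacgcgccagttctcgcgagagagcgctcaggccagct
In Hexim1, TATATAA began 29 bases before the GENCODE start, GGGCGG 51 bases and CGCATGCG 62 bases before it, with no overlap among the 3 matches. The RefSeq start of Hexim1 lies 94 bases downstream of the GENCODE start, so all 3 matches lie that much further from it. Which start these cells use was not tested. The Supt5 stretch held 1 match, to GGGCGG on the opposite strand. A stretch of 108 bases before the most upstream annotated start of Nelfa, also read but not printed, held no match. RefSeq promoters were found for 7 of the 9 genes. In the 250 bases before their RefSeq starts, TATATAA and CGCATGCG each occurred in 1 of the 7 (Hexim1), CCGGAAGT in 1 (Ccnt1), GGGCGG in 7 and CACGTG in 0. Among all 32851 promoters in the table, windows of that length held TATATAA in 3.04%, CGCATGCG in 1.55%, CCGGAAGT in 2.88%, GGGCGG in 32.7% and CACGTG in 6.02%. These matches describe letters only.

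P-TEFb consists of a kinase and a cyclin T subunit. Cdk9, the kinase gene (Cdk9-203, chr2:32707849-32713076, minus strand), read 2218, 2639 and 2203 in Acute libraries. The Chronic libraries read 2914, 2829 and 3119 and the ChronicMEKi libraries 2788, 2841 and 2874. Both chronic groups lay above Acute without overlap, and they overlapped with each other. The log2 fold change of Chronic over Acute was 0.33 (SE 0.10, adjusted p = 0.016), that of ChronicMEKi over Acute 0.27 (95% interval 0.06 to 0.48, adjusted p = 0.055) and that of ChronicMEKi over Chronic -0.06 (95% interval -0.27 to 0.15). The call of Chronic over Acute held under 13 of the 21 other settings. It was lost without Acute replicate 1 or Acute replicate 3 (adjusted p = 0.079 and 0.076). With the transcript of most pause-region signal it was also lost (0.30, adjusted p = 0.052). The sign of this difference turned to -0.16 with library totals and -0.14 on the deposited scale. ChronicMEKi over Acute was called without Acute replicate 2 or Chronic replicate 3 (adjusted p = 0.039 and 0.036), and turned to -0.11 with library totals and -0.070 on the deposited scale. A pair of microRNA genes, Mir2861 and Mir3960, lies within the Cdk9 gene on the same strand.

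Ccnt2, which encodes cyclin T2 (Ccnt2-201, chr1:127774164-127808061, plus strand), was lower in both chronic groups. Its signal was 4725, 4684 and 5343 in Acute libraries, against 4331, 3917 and 3550 in Chronic and 4129, 3973 and 4002 in ChronicMEKi libraries. No library of either chronic group reached the Acute range. The log2 fold change was -0.32 in Chronic (SE 0.10, adjusted p = 0.014) and -0.28 in ChronicMEKi cells (SE 0.10, adjusted p = 0.038), each against Acute. Leaving out Acute replicate 3 ended both calls (adjusted p = 0.063 and 0.067), and leaving out ChronicMEKi replicate 2 or replicate 3 ended the second (adjusted p = 0.083 and 0.10).

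Ccnt1, the cyclin T1 gene (Ccnt1-208, chr15:98538689-98570923, minus strand), gave 6446, 6943 and 6280 in Acute, 5607, 5931 and 6152 in Chronic and 6125, 5998 and 6358 in ChronicMEKi libraries. Chronic libraries lay below Acute ones without overlap, but the log2 fold change of -0.15 had a 95% interval of -0.33 to 0.02 and an adjusted p of 0.18. With library totals the same difference was -0.64 (adjusted p = 9.23e-05). An antisense gene, 9330020H09Rik, overlaps Ccnt1 over 2260 bases, and the strand setting of the counting is not given in the sources used here, so their reads cannot be told apart. The antisense gene's own signal was 245, 303 and 235 on average in Acute, Chronic and ChronicMEKi libraries.

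The 4 genes of the NELF complex differed in direction. Nelfe, which encodes the RNA-binding subunit (Nelfe-201, chr17:34850391-34856369, plus strand, no overlapping gene), had the widest range of group means of the 9 genes, 1.35 on the log2 scale. Its signal was 298, 434 and 309 in Acute libraries. Chronic libraries read 526, 697 and 868, and ChronicMEKi libraries read 936, 720 and 1017. Every library of both chronic groups lay above every Acute library, and the chronic groups overlapped. The log2 fold change was 0.99 in Chronic (SE 0.21, 95% interval 0.54 to 1.44, adjusted p = 0.0014) and 1.35 in ChronicMEKi cells (SE 0.21, 95% interval 0.91 to 1.80, adjusted p = 0.00010), each against Acute. Both differences were called under each of the 21 other settings, with values of 0.50 to 1.18 and 0.97 to 1.49, the lower ends with library totals. ChronicMEKi over Chronic gave 0.37 with a 95% interval of -0.08 to 0.81 and was not called.

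Nelfcd, which encodes the NELF-C and NELF-D forms from shared exons (Nelfcd-202, chr2:174415804-174427502, plus strand), had a like profile. Acute libraries read 411, 526 and 414, Chronic libraries 884, 664 and 569, and ChronicMEKi libraries 807, 745 and 692. Both chronic groups lay above Acute without overlap. The log2 fold changes over Acute were 0.63 in Chronic (SE 0.19, adjusted p = 0.014) and 0.73 in ChronicMEKi cells (SE 0.19, adjusted p = 0.0068). The first fell to 0.46 (adjusted p = 0.082) without Chronic replicate 1, the highest library, and to 0.14 (adjusted p = 0.60) with library totals. The call was also lost without Acute replicate 1 or replicate 3 (adjusted p = 0.056 and 0.053). The second was lost without ChronicMEKi replicate 1 (0.63, adjusted p = 0.052) and with library totals (0.35, adjusted p = 0.20).

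Nelfa, which encodes the subunit that contacts the polymerase (Nelfa-201, chr5:33897916-33936413, minus strand), was lowest in Chronic cells. Acute libraries read 2499, 2816 and 2501, Chronic libraries 2033, 2218 and 2165, and ChronicMEKi libraries 2567, 2591 and 2679. Chronic libraries lay below all others, and the remaining groups overlapped. The log2 fold change was -0.28 for Chronic against Acute (SE 0.10, adjusted p = 0.032) and 0.29 for ChronicMEKi against Chronic (SE 0.10, adjusted p = 0.0497). The second call was lost whichever of the 9 libraries was left out, with adjusted p from 0.057 to 0.21. The first was lost without Acute replicate 2, Chronic replicate 1 or ChronicMEKi replicate 1 (adjusted p = 0.13, 0.094 and 0.056). With the transcript of most pause-region signal, Nelfa-202, the first was -0.28 (adjusted p = 0.12) and the second 0.091 (adjusted p = 0.74), neither called. ChronicMEKi against Acute was 0.01 (95% interval -0.20 to 0.21), but -0.38 (adjusted p = 0.023) with library totals.

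Nelfb, which encodes another core subunit (Nelfb-201, chr2:25199712-25211489, minus strand), read 871, 987 and 868 in Acute, 1033, 789 and 972 in Chronic and 1025, 1047 and 1287 in ChronicMEKi libraries. Chronic libraries overlapped both other groups, and ChronicMEKi libraries lay above Acute ones. No difference was called, and the 95% intervals were -0.28 to 0.34 for Chronic against Acute, -0.05 to 0.58 for ChronicMEKi against Chronic and -0.02 to 0.61 for ChronicMEKi against Acute. With library totals the first of these differences, 0.03, turned to -0.46 (adjusted p = 0.024) and the last, 0.29, to -0.087.

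Supt5 encodes the large DSIF subunit, which stays with the elongating polymerase after pause release (Supt5-201, chr7:28314894-28338719, minus strand). Its signal was 2877, 3745 and 3285 in Acute, 3181, 3247 and 3128 in Chronic and 3780, 3068 and 2845 in ChronicMEKi libraries, and all groups overlapped. The log2 fold changes were -0.04, 0.01 and -0.03 for Chronic against Acute, ChronicMEKi against Chronic and ChronicMEKi against Acute. Their 95% intervals, -0.29 to 0.20, -0.24 to 0.26 and -0.28 to 0.21, all include 0. With library totals the first was -0.53 (adjusted p = 0.00424) and the last -0.42 (adjusted p = 0.028). The antisense gene Gm44709 overlaps Supt5 over 3976 bases, with mean signals of 477, 654 and 717 in Acute, Chronic and ChronicMEKi libraries.

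**Figure D2:**
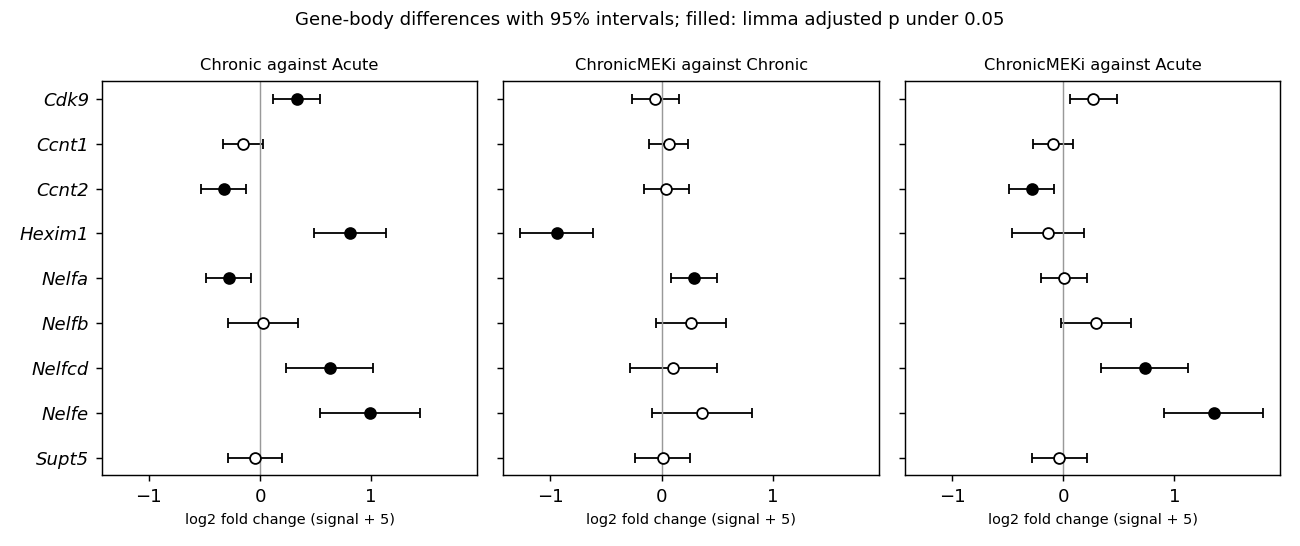
Log2 fold change of gene-body signal (after adding 5) for each gene in the 3 comparisons, with 95% intervals from limma. Filled points passed the adjusted test; Hexim1 sits at 0.81 in the left panel and at -0.94 in the middle one, and Nelfe at 1.35 in the right one.

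Across scalings, Nelfe was the gene called higher in both chronic groups under all 4, and Hexim1 was called lower in ChronicMEKi than in Chronic cells under all 4. The other directions against Acute moved with the scaling. With library totals or on the deposited scale, 1 gene was called higher and 5 lower between Chronic and Acute cells, instead of 4 and 2. With totals taken without the ribosomal RNA-like rows, 2 were higher and 3 lower. Between ChronicMEKi and Acute cells, library totals gave 1 higher and 5 lower, instead of 2 and 1. Of all genes, 955 were then higher and 4965 lower. Rescaling shifts all genes by nearly the same amount, so positions relative to the median gene are nearly fixed and give no separate support. Under library totals that median was -0.50, with Hexim1 at 0.32, Nelfe at 0.50 and Nelfcd at 0.14 above it. Ccnt2 at -0.81 and Nelfa at -0.77 lay below it.

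**Figure D3:**
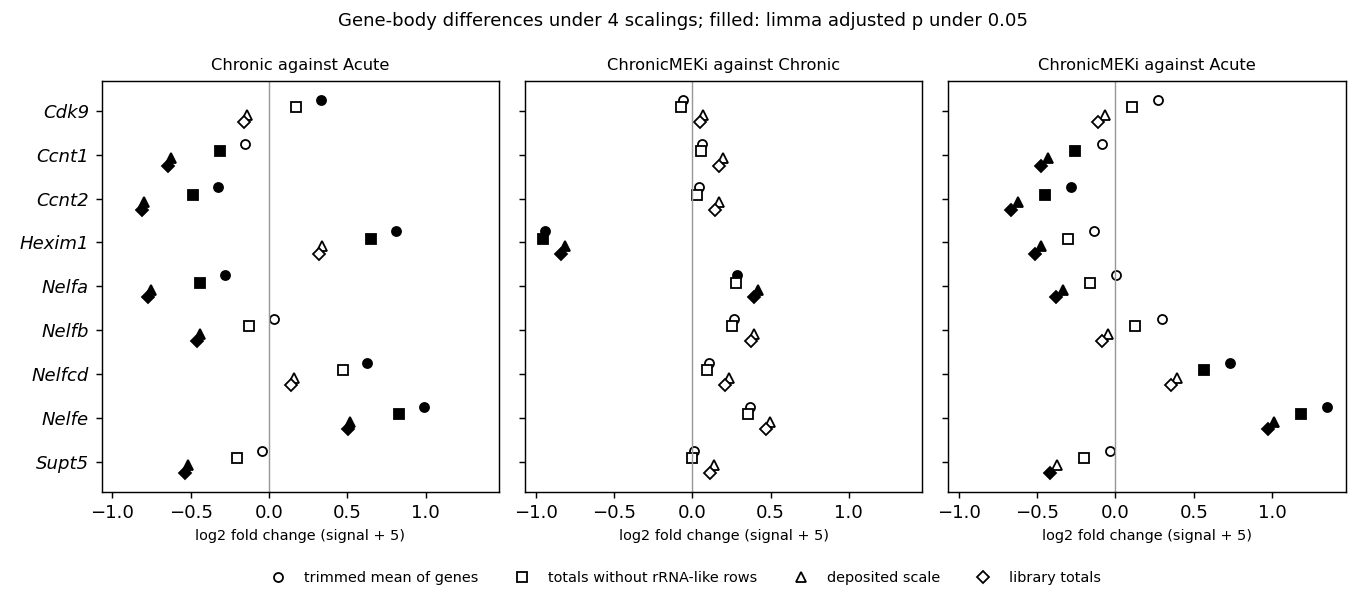
Log2 fold change of gene-body signal for each gene under 4 scalings (marker shape), in the 3 comparisons; filled markers had limma adjusted p under 0.05. In both comparisons with Acute, library totals and the deposited scale shift all genes to lower values, so that Cdk9 between Chronic and Acute goes from 0.33 to -0.16; between the chronic groups the markers of each gene lie close together.

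Per kilobase of annotated transcript, Cdk9 had the highest gene-body signal of the 9 genes in every group, 450 ± 47.3 in Acute, 565 ± 28.6 in Chronic and 542 ± 8.31 in ChronicMEKi libraries (SD, n = 3). It did not overlap the next gene in any group. Hexim1 came after it in Chronic cells (326 ± 42.1 per kilobase, SD, n = 3), above Ccnt1 (183 ± 8.50) without overlap. In Acute cells Hexim1 (185 ± 19.7) overlapped Ccnt1 (203 ± 10.7), which ranked above it. In ChronicMEKi cells Hexim1 (168 ± 3.37) overlapped Nelfe (149 ± 25.7). Nelfe had ranked next to last in Acute cells at 58.0 ± 12.6 per kilobase, below Nelfa (67.7 ± 4.73) with overlap, and Nelfcd was lowest at 38.5 ± 5.62. In Acute cells Ccnt2 (145) and Supt5 (139) also overlapped, and both lay above Nelfb (77.1). The limits of the counted regions are not given in the sources used here, so the per-kilobase values are approximate.

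In the pause region, the table sums signal near each annotated start. Rows that resemble ribosomal RNA took 66.8% to 68.6% of it in Acute, 77.7% to 82.6% in Chronic and 73.6% to 80.6% in ChronicMEKi libraries. In this measure 8 of the 9 genes had enough signal to be tested. The row used for Ccnt1 did not, at 6.93, 1.52 and 2.73 on average in Acute, Chronic and ChronicMEKi cells. None of the 8 was called by limma in any comparison. Across all 7678 genes tested, 10.7% were called between Chronic and Acute, 3% between ChronicMEKi and Chronic and 5.95% between ChronicMEKi and Acute. At an unadjusted p under 0.05 there was 1 gene in the first, 0 in the second and 1 in the third comparison, in both cases Nelfa. Of all 7678 genes, 1768, 1066 and 1449 were under that cut. No other tool was run. With library totals 2 genes, Ccnt2 and Nelfa, were called lower in Chronic than in Acute cells, as were 1600 of all 7678 genes.

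Nelfa's pause-region signal was 121, 122 and 118 in Acute libraries, 91.0, 51.4 and 49.3 in Chronic and 67.3, 72.5 and 62.2 in ChronicMEKi libraries. Both chronic groups lay below Acute without overlap, at log2 fold changes of -0.91 (95% interval -1.66 to -0.17, adjusted p = 0.12) and -0.79 (95% interval -1.54 to -0.05, adjusted p = 0.23). At the gene's other annotated transcript, Nelfa-202, the means were 110.2, 103 and 90.7 and the groups overlapped. Hexim1's pause region read 135, 59.3 and 140.3 in Acute, 70.1, 128 and 104 in Chronic and 50.4, 76.3 and 68.0 in ChronicMEKi libraries. Its groups overlapped, and the 95% interval for Chronic against Acute, -0.87 to 0.69, was wide. Nelfe's pause region averaged 30.2 in Acute, 60.0 in Chronic and 62.2 in ChronicMEKi cells, and only the last group lay wholly above Acute (log2 fold change 0.93, 95% interval -0.08 to 1.94).

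The start that a row uses decided how much pause-region signal it held. For Cdk9 the row with most gene-body signal, Cdk9-203, starts at position 32713076 of chromosome 2 and had pause-region means of 61.9, 50.5 and 44.4 in Acute, Chronic and ChronicMEKi cells. Cdk9-201, which starts at 32712784, had means of 798, 820 and 792. For Ccnt1, Ccnt1-205 starts at 98567545 of chromosome 15 and had means of 382, 369.8 and 325. Ccnt1-208, which starts at 98570923, had means of 6.93 or less. The Ccnt1-205 start lies within the antisense gene 9330020H09Rik (98567324-98569583). As strand use is not given, the signal of the 2 genes there cannot be told apart. When each gene was represented instead by its row with most pause-region signal, a choice made after seeing these values, all 9 genes were tested and none was called. The log2 fold changes of Chronic over Acute were then 0.08 for Cdk9 (SE 0.18), -0.01 for Ccnt1 (SE 0.22) and -0.08 for Nelfa (SE 0.34).

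**Figure D4:**
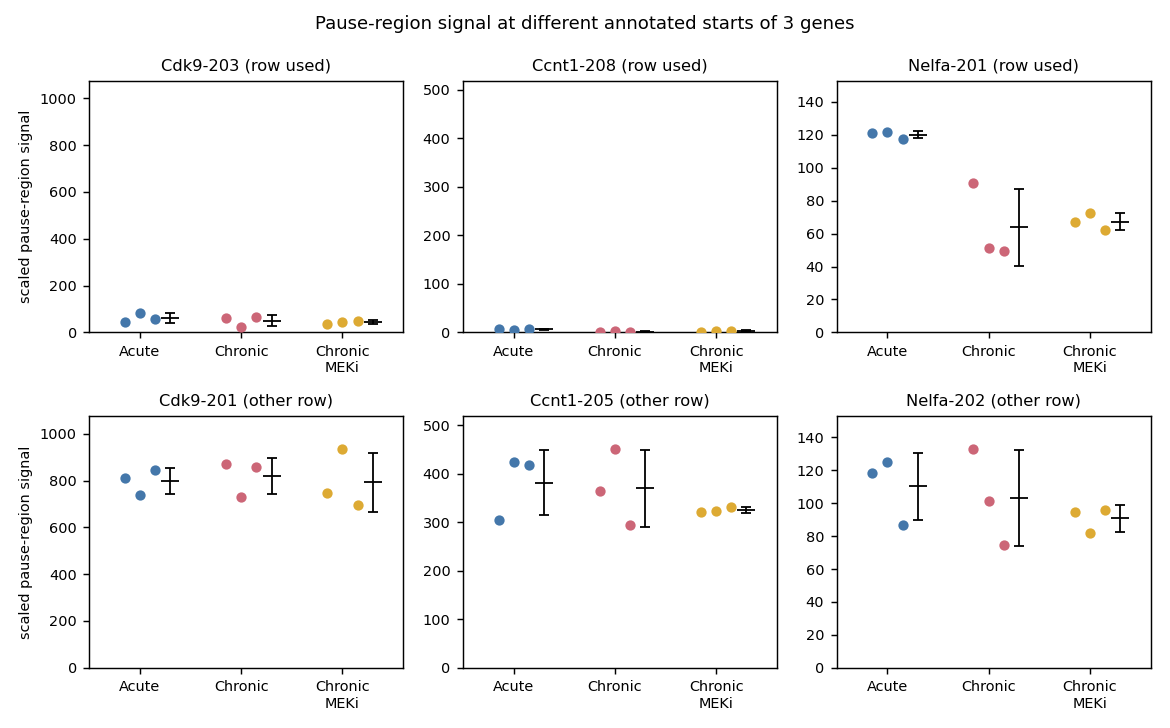
Scaled pause-region signal per library (linear axis from 0, the same within each column) at the row used and at the other annotated row with most pause-region signal of Cdk9, Ccnt1 and Nelfa, with the mean and SD of 3 libraries beside each group. Cdk9-201 and Ccnt1-205 hold means of 798 and 382 in Acute cells where the rows used hold 61.9 and 6.93.

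Pausing was taken in each library as the log2 pause-region signal minus the log2 gene-body signal. These signals were scaled separately, so a change in pausing shared by most genes could not be seen. Over all genes the median difference was -0.04 between Chronic and Acute and -0.03 between ChronicMEKi and Acute. On the deposited scale these medians were 0.35 and 0.43. Pausing was not called for any of the 8 genes tested by limma, and 0% of all 7413 genes were called in each comparison. Among all genes 749, 394 and 591 had an unadjusted p under 0.05 in the comparisons of Chronic with Acute, ChronicMEKi with Chronic and ChronicMEKi with Acute. Of the 8 genes, 1, 0 and 1 did. These were Hexim1 in Chronic against Acute (-0.90, 95% interval -1.71 to -0.08, adjusted p = 0.46) and Nelfa in ChronicMEKi against Acute (-0.80, 95% interval -1.46 to -0.14, adjusted p = 0.58). Hexim1's per-library values were -2.03, -3.44 and -2.23 in Acute, -3.70, -3.17 and -3.53 in Chronic and -3.40, -2.90 and -3.01 in ChronicMEKi libraries, with Acute replicate 2 inside the Chronic range. The gene-body level enters this difference, so it repeats in part the gene-body result. With the rows of most pause-region signal, Nelfa's pausing difference between ChronicMEKi and Acute was -0.01.

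Lists of genes that act with these 9 were read from the same fit. Their counts under library totals stand beside those of all 15942 genes under that scaling. Between Chronic and Acute 1096 of all genes were then higher and 6846 lower. Between ChronicMEKi and Acute 955 were higher and 4965 lower. Of 14 partners of P-TEFb and the 7SK complex, 2 were higher and 6 lower in Chronic than in Acute cells, with a median log2 fold change of -0.24 against -0.02 for all genes. Of all genes 18% were called higher and 15.9% lower there. With library totals 1 was higher and 10 lower. Larp7, the 7SK-binding protein gene, had gene-body means of 758 ± 76.0 in Acute, 365 ± 59.4 in Chronic and 590 ± 12.4 in ChronicMEKi cells (SD, n = 3), with no overlap between groups. It was lower in Chronic than in Acute cells (log2 fold change -1.05, SE 0.18, adjusted p = 0.00014) and higher in ChronicMEKi than in Chronic cells (0.70, SE 0.18, adjusted p = 0.0096), directions opposite to those of Hexim1. The second call held under 18 of the 21 other settings, with adjusted p up to 0.16 over all of them. It was lost without ChronicMEKi replicate 1, for example (0.64, adjusted p = 0.057). Mepce, which encodes the 7SK capping enzyme, averaged 2215, 1747 and 1998, and Chronic lay below Acute by -0.33 (adjusted p = 0.049), a call lost when any library other than Acute replicate 1 or ChronicMEKi replicate 3 was left out (adjusted p = 0.052 to 0.19). Hexim2, the paralog of Hexim1, averaged 130.2, 178 and 197 and was called in no comparison, but with its longest transcript Chronic over Acute was 1.08 (adjusted p = 0.033) and with plain moderation ChronicMEKi over Acute was called at 0.58 (adjusted p = 0.048).

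Kdm2b, which encodes a histone demethylase, was higher in Chronic than in Acute cells (1713 ± 128 and 4171 ± 368, SD, n = 3; log2 fold change 1.28, adjusted p = 2.6e-08) and lower again in ChronicMEKi cells (2014 ± 126; -1.05, adjusted p = 9.2e-07). It overlaps Rnf34 on the other strand, and at its row with most pause-region signal neither difference was called. Brd2 was higher in Chronic than in Acute cells (0.39, adjusted p = 0.0029), but -0.10 with library totals. H2-DMa overlaps Brd2 on the other strand. Between ChronicMEKi and Chronic cells, 1 gene of this list was higher and 1 lower, namely Larp7 and Kdm2b, beside 9.93% and 7.65% of all genes. Between ChronicMEKi and Acute cells, 1 was higher and 3 lower, including Ddx21 (-0.59) and Wdr43 (-0.50), against 0 and 8 with library totals. Of all genes 14.4% were called higher and 11.5% lower in the main fit of that comparison.

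The next list held 15 genes of the super elongation complex, in which P-TEFb works in active form, and of related factors. Of these, 2 were higher and 4 lower in Chronic than in Acute cells, and likewise 2 and 4 in ChronicMEKi than in Acute cells. With library totals these counts were 1 and 9, and 0 and 9. The 6 called of 15 stand beside 33.9% of all genes called in the first comparison and 25.8% in the second, and the list's median in the first was -0.0058. Ell2, an elongation factor gene of the complex, averaged 833 ± 100.2 in Acute, 2387 ± 276 in Chronic and 1161 ± 213 in ChronicMEKi cells (SD, n = 3). Its log2 fold changes were 1.51 (SE 0.15, adjusted p = 3.1e-07) for Chronic against Acute and -1.05 (SE 0.15, adjusted p = 5.7e-05) for ChronicMEKi against Chronic. Eaf1, whose product binds ELL proteins, averaged 2730, 3787 and 2236. It was 0.47 higher in Chronic than in Acute cells (adjusted p = 0.0024), but -0.02 with library totals, and fell by 0.76 on the log2 scale from Chronic to ChronicMEKi (adjusted p = 5.0e-05). Aff3, a scaffold relative, averaged 37993, 6427 and 11973, with log2 fold changes of -2.58 for Chronic against Acute (adjusted p = 4.0e-10) and 0.92 for ChronicMEKi against Chronic (adjusted p = 0.00011). Between ChronicMEKi and Chronic cells, 2 genes of the list were higher, Aff3 and Mllt6 (0.58), and 3 lower. Of all genes 9.93% were called higher and 7.65% lower there. The Mllt6 call was lost without Chronic replicate 3 or ChronicMEKi replicate 1 (adjusted p = 0.069 and 0.058). Ell2, Aff3 and Eaf1 each overlap a gene on the other strand.

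**Figure D5:**
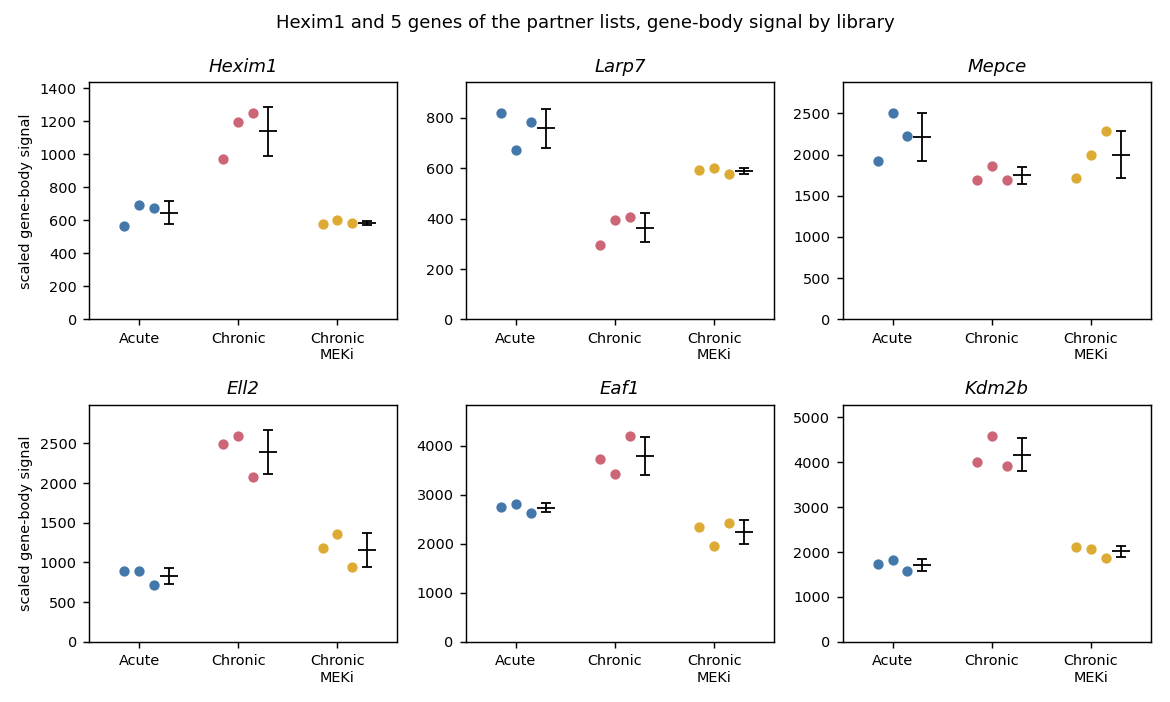
Scaled gene-body signal per library (linear axes from 0) of Hexim1 and 5 genes from the partner lists, with the mean and SD of 3 libraries beside each group. Hexim1, Ell2, Eaf1 and Kdm2b stand highest in Chronic cells, and Larp7 stands lowest there, at 365 on average.

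Of 20 tested genes for the small DSIF subunit, the PAF1 complex and other elongation factors, 1 was higher and 5 lower in Chronic than in Acute cells, 2 were higher and 0 lower in ChronicMEKi than in Chronic cells, and 0 were higher and 2 lower in ChronicMEKi than in Acute cells. With library totals 0 were higher and 17 lower in the first comparison and 0 higher and 11 lower in the last. The shares of all genes called in the 3 comparisons, 33.9%, 17.6% and 25.8%, were each larger than the list's, and its median in the first was -0.17. Tcea2, an elongation factor gene, was among the lower genes in Chronic cells (-0.71, adjusted p = 0.029), a call lost without Acute replicate 3 or Chronic replicate 3 (adjusted p = 0.12 in both cases). Setd2, the histone methyltransferase gene that acts in gene bodies, was higher in ChronicMEKi than in Chronic cells (0.35, adjusted p = 0.0075), as was Leo1 of the PAF1 complex (0.45, adjusted p = 0.041). Setd2 was not called without ChronicMEKi replicate 1 (adjusted p = 0.088), and Leo1 was called without Chronic replicate 3 but not when any other library was left out (adjusted p = 0.081 to 0.19). Supt4a, the DSIF partner of Supt5, was not called, at -0.37 (adjusted p = 0.089) in Chronic against Acute, though it was called without Chronic replicate 3 (-0.50, adjusted p = 0.032) and with library totals (-0.86, adjusted p = 0.00017).

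Of 16 Integrator genes, whose complex cleaves RNA at paused polymerases, 5 were higher and 0 lower in Chronic than in Acute cells, including Ints5 (0.50, adjusted p = 0.0033) and Ints10 (0.49, adjusted p = 0.0054). In ChronicMEKi against Acute cells 6 were higher and 0 lower. Of all genes 18% were called higher in the first comparison and 14.4% in the second, and the list's medians were 0.19 and 0.18. These directions depended on the scaling: with library totals 0 were higher and 8 lower in the first comparison, and 0 higher and 7 lower in the second. Of all 15942 genes, 6846 and 4965 were then lower in these comparisons. Between ChronicMEKi and Chronic cells 9.93% of all genes were called higher. Against Chronic cells, 1 gene of the list was higher in ChronicMEKi cells, Ints7 (0.30, adjusted p = 0.035). That call was lost when any library other than Chronic replicate 2 or Chronic replicate 3 was left out (adjusted p = 0.054 to 0.22).

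Among 18 genes for kinases, phosphatases and termination factors that act on the polymerase tail, 2 were higher and 6 lower in Chronic than in Acute cells. In ChronicMEKi cells 3 were higher and 5 lower than in Acute cells, and 0 were called against Chronic cells. With library totals the first of these counts were 1 and 13 and the second 1 and 11. Of all genes 33.9% and 25.8% were called in the comparisons with Acute, and 17.6% between the chronic groups. The list's medians in the comparisons with Acute were -0.14 and -0.05. Ccnh, the cyclin gene of the TFIIH kinase, averaged 2233, 1011 and 866, with log2 fold changes of -1.14 in Chronic (adjusted p = 1.5e-06) and -1.36 in ChronicMEKi cells (adjusted p = 2.9e-07) against Acute. Ccnh overlaps Rasa1 on the other strand. Xrn2, which encodes the termination exonuclease, was -0.65 in Chronic against Acute (adjusted p = 1.2e-05). Cdk8, the Mediator kinase gene, was higher in Chronic than in Acute cells (1.21, adjusted p = 0.00049) at a mean signal of 200289 in Acute cells, far above the other genes named here. Cdk8 overlaps Gm15739 on the same strand. At its row with most pause-region signal the difference was -0.02. The cause was not tested.

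Of 13 polymerase II subunit genes, 2 were higher and 0 lower in both comparisons with Acute, and 0 were called between the chronic groups. The 2 of 13 called were a smaller share than that of all genes, 33.9% and 25.8%, and the list had medians of 0.22 and 0.09. Between the chronic groups 17.6% of all genes were called. Polr2i (1.33, adjusted p = 0.015), which overlaps Tbcb on the other strand, and Polr2e (0.94, adjusted p = 0.014) were the higher ones in Chronic cells. Polr2i was not called without Acute replicate 3 or Chronic replicate 3 (adjusted p = 0.060 and 0.11, the latter at 0.81), and Polr2e not without Acute replicate 1 or Chronic replicate 1 (adjusted p = 0.091 and 0.081). With library totals the counts were 0 higher and 5 lower in Chronic against Acute, and 0 higher and 3 lower in ChronicMEKi against Acute. For the comparisons with 0 genes called, no tool besides limma was run.

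The genes whose gene-body profile over the 9 libraries was most like that of Nelfe were Cdca4 (Pearson r = 0.994), Zfp36l1 (0.989) and Ywhah (0.983). Those most like Hexim1 were Maf (0.996), Bnip3 (0.992) and Ppp1r3b (0.989). Maf, a transcription factor gene, averaged 1960, 3820 and 1761 in Acute, Chronic and ChronicMEKi cells, and Ppp1r3b, a glycogen-targeting phosphatase subunit gene, averaged 452, 1673 and 338. These coefficients were the highest among 15942 genes over 9 libraries that share group and scaling, and they are given as a description.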

How the data were processed

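Nascent RNA of 9 libraries from mouse CD8+ T cells (3 Acute, 3 Chronic, 3 ChronicMEKi) was analysed from 2 tables of signal that the authors deposited, one for gene bodies and one for pause regions. The submitters' processing notes name FastQC 0.12.0, Trim Galore 0.6.10, STAR 2.7.0a, SAMtools 1.19.2, deepTools 0.1.9, R 4.1.2 and build mm10. Region limits, strand use and the authors' scale factor are not given in the sources used here. The deposited signal values were whole multiples (within 0.01) of a step of 0.764 to 1.06 per library. Among 2570 genes with signal in 1 library, 631 held 1 step, 201 held 3, 585 held 4 and 47 held 5. A step was therefore not treated as a read, depth in reads is unknown, and no counting interval or count model was used.

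Of 118482 rows, 117346 matched GENCODE M21 (GRCm38) transcripts with their version, 383 without it and 753 not at all. Each gene was represented by the transcript whose gene-body signal had the largest mean. Libraries were scaled on the trimmed mean of gene-wise log ratios, unweighted (30% of ratios and 5% of levels trimmed), separately for gene bodies and pause regions. Genes that reached 50 in 3 or more libraries were tested with limma 3.58.1 (trend, robust; R 4.3.3) on log2(signal + 5). One model with 3 group means was fitted to all 9 libraries, and p-values were adjusted by Benjamini-Hochberg over all genes tested. Fold changes are on the log2(signal + 5) scale and understate changes of low genes. The procedure was tested on simulated data. Figures used Python 3.11.15 and matplotlib 3.10.9.

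The 9 genes and the partner and marker lists were chosen with earlier results of these data known. Named genes were all 9 members, the 2 called partner genes per list and direction with the largest fold change (a selection is printed), and the 3 genes most correlated with each of the 2 members of widest range. Mepce, Hexim2 and Supt4a were named outside that rule, after their values were seen, as direct partners. Alternatives were 3 other scalings, pseudocounts of 0.5 and 20, no filter and a minimum of 100, the longest transcript per gene, plain moderation, fits of 2 groups, the replicate number as a block, leaving out each library, and, added after seeing the data, the row with the largest pause-region signal. The 7SK RNA itself was not analysed here. Some genes of these lists are not reported here.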

Additional observations from a re-analysis of the deposited data

How the results depend on the processing

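Between Chronic and Acute cells, 6 of the 9 genes were called in the gene body; without a low-signal filter 2 were, with the row of largest pause-region signal or plain moderation 4, and leaving out 1 library gave 3 to 6, with 3 without Acute replicate 3. Of all genes, 5403 of 15942 were called in that comparison, 4730 with plain moderation and 4052 of 34470 without a filter. Between ChronicMEKi and Acute cells the count of 3 became 5 on the deposited scale and 6 with library totals. It became 1 without a filter and 2 to 4 on leaving out 1 library. All genes called there were 4118 of 15942, 5565 on the deposited scale, 5920 with library totals and 2642 of 34470 without a filter. Between ChronicMEKi and Chronic cells the count of 2 became 1 without a filter, with plain moderation, with only the 2 groups compared, with a pseudocount of 20, with the longest transcript, with the row of largest pause-region signal, with totals that leave out ribosomal RNA-like rows, and on leaving out any library (1 to 1). All genes called between ChronicMEKi and Chronic were 2802 of 15942, 2133 with plain moderation and 1637 of 34470 without a filter. In the pause region the count of 0 between Chronic and Acute became 2 with library totals, while that of all 7678 genes went from 823 to 1723. All other counts for the pause region and pausing remained at 0.

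Log2 fold changes of Chronic over Acute turned from higher to lower on the deposited scale and with library totals for Cdk9 (-0.14 and -0.16), Nelfb (-0.44 and -0.46), Brd2 (-0.087 and -0.10), Ctdspl2 (-0.19 and -0.21), Eaf1 (-0.0061 and -0.023) and Eloc (-0.13 and -0.15). The same happened between ChronicMEKi and Acute for Nelfa (-0.34 and -0.38) and Polr2a (-0.079 and -0.12), and for Brd2 with library totals (-0.035). Of differences not called either way, Cdk9 (-0.070 and -0.11) and Nelfb (-0.047 and -0.087) between ChronicMEKi and Acute and Hexim2 (-0.039 and -0.056) between Chronic and Acute also changed sign. With the row of largest pause-region signal, Cdk8 turned to -0.023 (Chronic over Acute) and -0.071 (ChronicMEKi over Acute), and Kdm2b to 0.53 (ChronicMEKi over Chronic). The scalings move all genes by construction; other causes were not tested.

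Whether replicate numbers pair the samples could not be settled. Libraries with the same number had correlations of deviations of -0.53 to 0.10 over 9 pairs, and other pairs -0.37 to 0.51 over 18. Between Acute and Chronic, pairs with the same number were at 0.075 to 0.098 and other pairs at -0.077 to -0.012. Same-number pairs were at -0.53 to -0.011 between Acute and ChronicMEKi and at -0.15 to 0.091 between Chronic and ChronicMEKi. Deviations sum to 0 within each group, so these correlations are not independent. With the replicate block the counts of called genes were the same, 6, 2 and 3 in the gene body (Chronic against Acute, ChronicMEKi against Chronic, ChronicMEKi against Acute) and 0 elsewhere. The planned count test was not run, since reads could not be recovered from the tables. Precision was lower in the pause region than in the gene body. For Cdk9 between Chronic and Acute the 95% interval was -1.32 to 0.64 in the pause region, against 0.12 to 0.54 in the gene body. At the Cdk9 row with most pause-region signal the SE of that pause-region difference was 0.18, against 0.48 at the row used. The widest interval between Chronic and Acute was that of Nelfcd in pausing, -1.40 to 1.16.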
